A study of Drosophila melanogaster with 12 samples.

Results

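A set of 41 Drosophila melanogaster genes had its highest mean level in females that had mated once, with lower means both in virgins and in females that had mated on 2 successive days. The set was drawn from 11982 genes, each represented by the probe set of highest mean among those with 1 gene symbol. A gene entered when its single mated mean lay at least 0.3 above the virgin mean on the log2 scale and its double mated mean at least 0.3 below the single mated mean. This held for 50 genes, 0.417% of all, and 9 metallothionein, cytochrome P450, juvenile hormone and other genes were left out by name. The mirrored pattern, a dip after 1 mating, was met by 91 genes. The members were thus chosen by their single mated minus virgin and double minus single mated differences over all 12 arrays, and their single mated peak is a description, not a tested result.

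RNA was measured in pools of 8 whole adult females of LHM, a large outbred wild-type laboratory population, on Affymetrix Drosophila Genome 2.0 arrays, with 4 arrays from 4 separate extractions in each of 3 groups. Collection as virgins took place on day 9, and on day 12 each female received a fresh vial with live yeast. Double mated females mated with tester males, a cross of a pair of inbred LHM lines, on day 12 and again on day 13. The virgin and single mated groups received no males on day 12, but like the males removed from the double mated group they were briefly anesthetized with CO2. Single mated females are taken to have mated on day 13, because the protocol text breaks off there. Freezing followed mating by 6 hours, taken as the last mating where there were 2, so the number of matings and the time since the first one cannot be told apart.

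Mating in the fly switches the female from storing eggs to laying them. Seminal proteins, in part through the sex peptide receptor, raise feeding, egg production and juvenile hormone. The midgut enlarges and changes its enzymes and carriers. The peaking genes included serine proteases and other peptidases, small-molecule carriers, and several stress and signalling genes. They also included enzymes that join or split fatty acid, amino acid and ester bonds. Roles are given as background for 31 members, grouped with their values known, and 10 members are named without a role.

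Yolk protein genes marked the extracts as female, with Yp1 at 15.03 ± 0.05, 15.12 ± 0.03 and 15.14 ± 0.04 (SD, n = 4) in virgin, single mated and double mated pools. Of the male lists, 24 accessory gland genes had array medians of 3.86 to 4.08 and 32 testis and sperm genes 3.97 to 4.21, below the median of 6.02 over all values. In whole-body RNA, fewer cells of a type and less RNA per cell cannot be told apart. Among the arrays, double mated replicate 4 deviated most: the SD over probe sets of its difference from the rest of the group was 0.245, against 0.132 to 0.185 for the other 11 arrays.

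**Figure D1:**
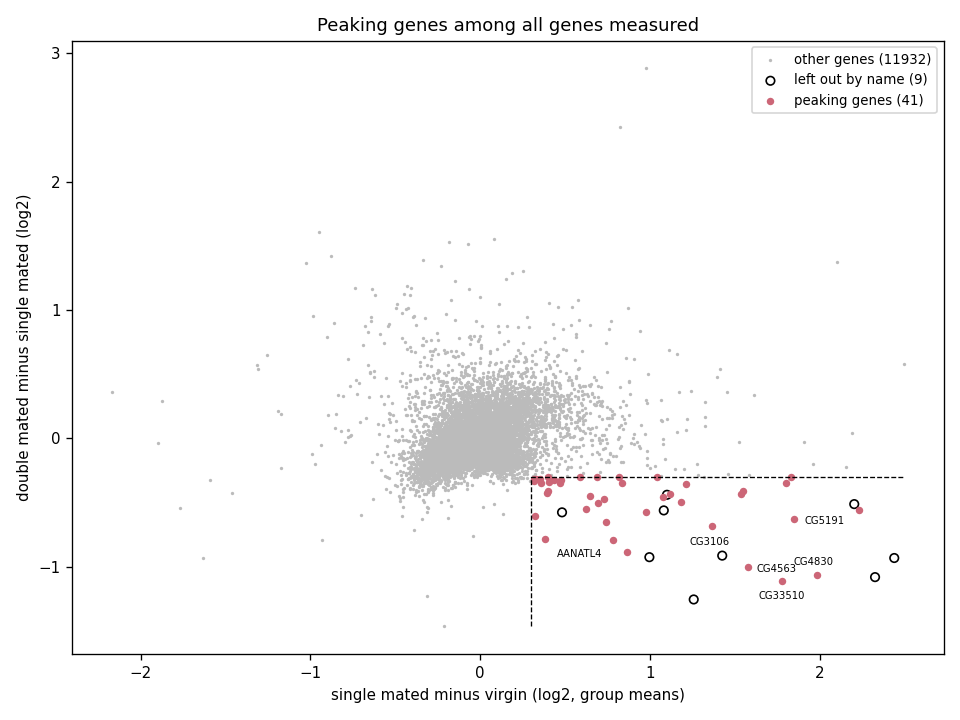
Each point is a gene, with the difference between single mated and virgin means on the horizontal axis and between double mated and single mated means on the vertical axis, both log2. The 41 peaking genes (filled) and the 9 left out by name (open) lie right of 0.3 and below -0.3, outlined by dashed lines, among 11982 genes.

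Over the members, the median single mated minus virgin difference was 0.74 and the median double minus single mated difference -0.43. Over all 18769 probe sets the medians of the same differences were 0.00 and -0.03. In limma, 31 of the 41 were called higher in single mated than in virgin females (4.49% of all probe sets), 13 were called lower in double than in single mated females (1.74%), and 11 were called in both (0.128%). By the rule, 0 were called lower in single mated than in virgin females (5.17%) or higher in double than in single mated females (3.55%). Those comparisons chose the members, so nothing is read from these counts. Of all calls between single mated and virgin females 46.5% were higher, and this share was 63.2% under cyclic loess and 25% after subtracting the median of every array. In 17 of 41 genes every single mated array lay above all 8 other arrays (0.568% of genes). Single mated arrays were all above the virgin arrays in 36 of 41 (9.76%) and all above the double mated arrays in 18 (5.81%).

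The peaks rested in part on single arrays. Single mated replicate 4 held the highest single mated value in 26 of 41 members, against 28.2% of all genes. Double mated replicate 4 held the lowest double mated value in 25 of 41, against 31.9% of all genes. Without double mated replicate 4, 26 of the 41 still met the rule, without single mated replicate 4 also 26, and without both 15. With each of the 12 arrays left out in turn, 16 members met the rule every time: CG33510, CG4830, CG4563, AANATL4, CG11034, CG3106, CG30265, CG5191, Tdh, CG31259, CG6733, CG32277, CG15745, CG12517, CG5892 and CG32523.

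**Figure D2:**
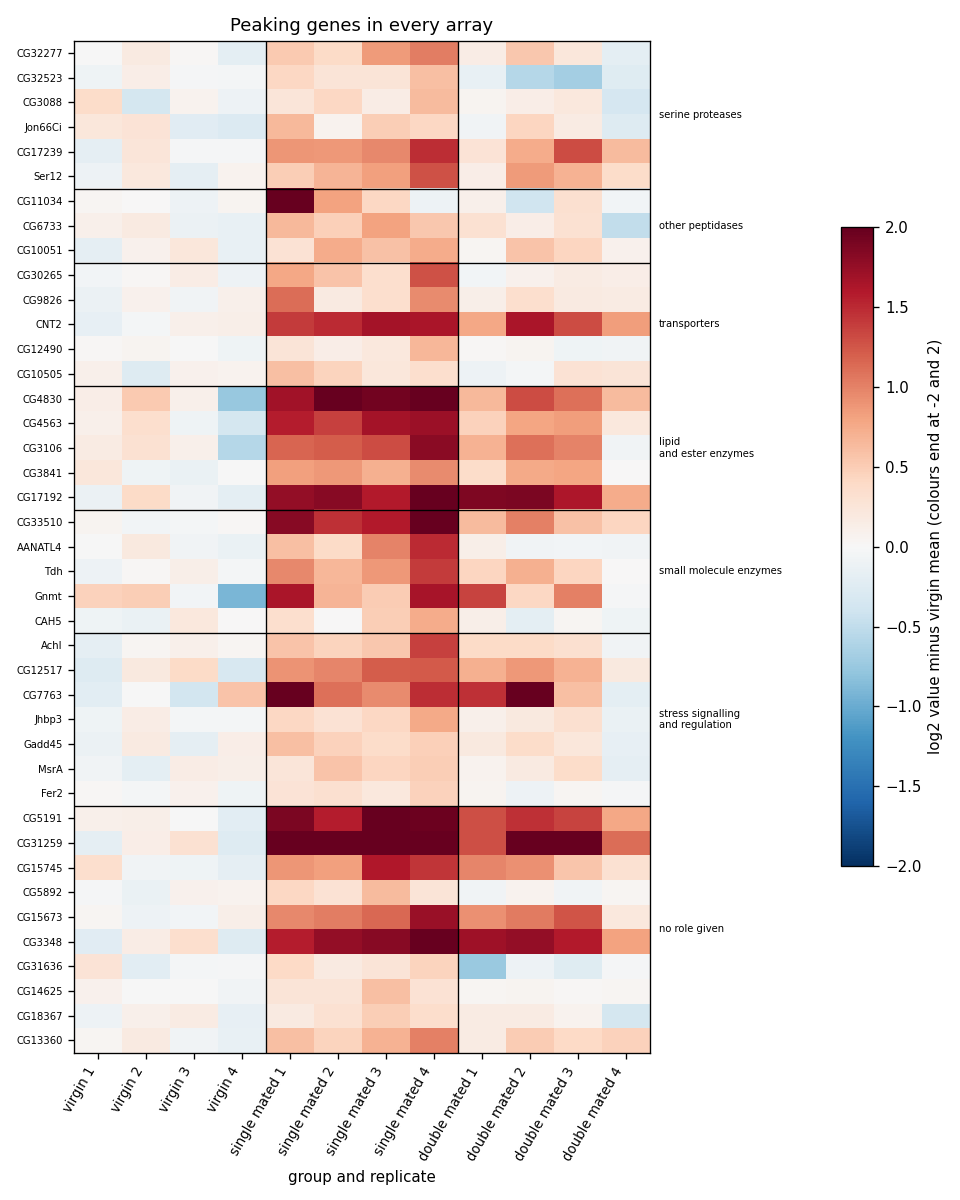
Rows are the 41 genes by role and columns the 12 arrays, and colour gives the log2 value minus the gene's virgin mean, from -2 (blue) to 2 (red). The 4 single mated columns are the reddest, with single mated replicate 4 highest in 26 genes, and double mated replicate 4 is the palest double mated column.

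Enzymes that activate, transfer or hydrolyse fatty acids and esters made up 5 members. CG4830 and CG4563 belong to the family that joins carboxylic acids to coenzyme A. CG4830 measured 7.69, 8.07, 7.66 and 6.79 in virgin replicates 1 to 4, 9.23, 9.58, 9.49 and 9.84 after 1 mating, and 8.20, 8.85, 8.65 and 8.18 after 2 matings. Its single mated mean was 3.96-fold the virgin and 2.09-fold the double mated mean. Every single mated pool was above every other pool, and every double mated pool above every virgin pool. CG4563 gave 6.20, 6.45, 6.01 and 5.75 in virgins, 7.68, 7.47, 7.76 and 7.81 in the single mated group and 6.57, 6.90, 6.93 and 6.31 in double mated pools. Single mated pools again stood above all others, by 2.98-fold over virgins in the mean, and the lowest double mated pool lay within the virgin range.

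CG3106, of a membrane acyltransferase family, read 8.79, 8.94, 8.74 and 8.06 in virgins, 9.80, 9.84, 9.94 and 10.43 in the single mated group and 9.34, 9.74, 9.63 and 8.56 in double mated females. The single mated pools did not overlap the rest, but their lowest value, 9.80, was close to the highest double mated value, 9.74. The lipase-family gene CG17192 averaged 9.15 ± 0.26, 10.98 ± 0.24 and 10.68 ± 0.54 (SD, n = 4) in virgin, single and double mated pools, and the carboxylesterase-family gene CG3841 averaged 7.50 ± 0.16, 8.34 ± 0.10 and 7.98 ± 0.37. In both, double mated replicate 4 was the lowest of its group, at 9.89 and 7.51. Without that array the double mated minus single mated difference was -0.04 for CG17192 and -0.19 for CG3841. Of these 5 genes 3 still met the rule without it, and without single mated replicate 4 as well 2 did, CG4830 and CG4563.

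Enzymes of other small molecules, among them amines, amino acids, sterols and carbon dioxide, formed a group of 5. CG33510, of the ecdysteroid kinase-like family, measured 5.13, 5.02, 5.04 and 5.10 in virgins, 6.89, 6.52, 6.66 and 7.31 after 1 mating, and 5.70, 6.08, 5.66 and 5.50 after 2. The 3 groups did not overlap at all, and the single mated mean was 3.43-fold the virgin and 2.16-fold the double mated mean. AANATL4, named for arylalkylamine N-acetyltransferases, the enzymes that acetylate dopamine and other amines, read 5.24, 5.45, 5.19 and 5.12 in virgins, 5.86, 5.63, 6.24 and 6.74 in the single mated group and 5.36, 5.18, 5.19 and 5.18 in double mated pools. Its double mated pools fell within the virgin range, and its single mated pools, above both, were spread from 5.63 to 6.74.

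Tdh, threonine dehydrogenase, starts the breakdown of threonine toward glycine. It measured 7.24, 7.36, 7.44 and 7.29 in virgins, 8.30, 8.00, 8.20 and 8.74 in the single mated group and 7.76, 8.05, 7.77 and 7.35 in double mated females. All single mated pools were above all virgin pools, and 1 double mated pool was above the lowest single mated one. Gnmt methylates glycine with S-adenosylmethionine. Gnmt read 8.08, 8.10, 7.56 and 6.70 in virgins, 9.24, 8.29, 8.12 and 9.26 in the single mated group and 8.96, 8.03, 8.62 and 7.58 in double mated females. Here the double mated pools overlapped both other groups, and the SD of each group was at least 0.61. CAH5, a carbonic anhydrase, averaged 5.11 ± 0.15, 5.50 ± 0.30 and 5.07 ± 0.14. All of this group except Gnmt still met the rule without double mated replicate 4, and without single mated replicate 4 as well 3 did, CG33510, AANATL4 and Tdh.

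Serine proteases and a homolog made up 6 members. Most such enzymes in the fly are secreted, by the midgut, the reproductive tract or blood cells. CG32277 measured 7.63, 7.83, 7.67 and 7.44 in virgins, 8.17, 8.03, 8.49 and 8.66 after 1 mating and 7.80, 8.19, 7.88 and 7.45 after 2. Single mated pools were above every virgin pool, and 1 double mated pool overlapped them. The chymotrypsin-like Jon66Ci, of the Jonah midgut family, read 6.39, 6.44, 5.95 and 5.91 in virgins, 6.82, 6.25, 6.66 and 6.58 in the single mated group and 6.10, 6.60, 6.33 and 5.92 in double mated females. Its 3 groups overlapped.

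CG17239, a protease of the sperm storage glands, read 8.17, 8.58, 8.32 and 8.32 in virgins, 9.22, 9.22, 9.30 and 9.81 in the single mated group and 8.61, 9.09, 9.65 and 8.98 in double mated females. Ser12 read 8.41, 8.73, 8.34 and 8.58 in virgins, 9.01, 9.19, 9.33 and 9.79 in the single mated group and 8.65, 9.37, 9.21 and 8.88 in double mated females. In both genes the single mated pools cleared the virgin pools but not the double mated ones. CG32523 averaged 7.37 ± 0.10, 7.75 ± 0.16 and 6.96 ± 0.26 (SD, n = 4), and all its double mated pools lay below all its virgin pools. The protease homolog CG3088 averaged 10.06 ± 0.30, 10.43 ± 0.21 and 10.08 ± 0.24. Without double mated replicate 4, 2 of the 6, CG32277 and CG32523, still met the rule, and without single mated replicate 4 as well only CG32523 did.

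Of the other peptidase-like genes, CG11034 belongs to the dipeptidyl peptidase family. It read 5.18, 5.15, 5.04 and 5.20 in virgins, 7.15, 5.95, 5.56 and 5.04 in the single mated group and 5.25, 4.74, 5.47 and 5.08 in double mated pools. The single mated SD was 0.90, and 1 single mated pool was as low as the lowest virgin pool. The aminoacylase-family gene CG6733 measured 8.11, 8.20, 7.89 and 7.86, then 8.67, 8.49, 8.83 and 8.56, then 8.33, 8.15, 8.33 and 7.53 in virgin, single and double mated pools. Its single mated pools lay above all others by a narrow margin. CG10051, a metallopeptidase-family gene, averaged 5.27 ± 0.19, 5.86 ± 0.22 and 5.56 ± 0.26.

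Carriers made up 5 members, of which CG30265, CG12490 and CG9826 belong to the organic anion and phosphate carriers of the major facilitator superfamily. CG30265 read 3.63, 3.70, 3.84 and 3.58 in virgins, 4.45, 4.26, 4.02 and 4.96 in the single mated group and 3.63, 3.77, 3.85 and 3.82 in double mated females. CG9826 read 4.93, 5.13, 4.98 and 5.14 in virgins, 6.17, 5.23, 5.37 and 5.99 in the single mated group and 5.15, 5.38, 5.22 and 5.20 in double mated females. For CG30265 the single mated pools were above all others, whereas for CG9826 single mated replicates 1 and 4 were high and replicates 2 and 3 lay in the double mated range. CG12490 averaged 4.44 ± 0.06, 4.76 ± 0.24 and 4.42 ± 0.07. All group means of CG30265, CG12490 and CG9826 lay below the median of 6.02 over all values. Those of CG30265, at 3.68, 4.42 and 3.77, were near the array medians of the male lists, 3.86 to 4.21.

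CNT2, a concentrative nucleoside transporter, had means of 8.26 ± 0.13, 9.81 ± 0.13 and 9.40 ± 0.40 in the virgin, single and double mated pools. Its double mated replicates 2 and 3, at 9.89 and 9.57, were close to the single mated values, and replicates 1 and 4, at 9.04 and 9.10, were lower. The ABC transporter CG10505 averaged 5.85 ± 0.18, 6.25 ± 0.16 and 5.95 ± 0.20. Each of the 5 carriers still met the rule without double mated replicate 4, and 3 of them, CG30265, CG9826 and CG10505, also without single mated replicate 4.

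Position was not part of the rule. In RefSeq gene order (Release 6), MFS1, CG30265, CG12490, CG9825 and CG9826 are 5 consecutive protein-coding genes. MFS1, a related carrier left out by name, also met both thresholds, at 6.30 ± 0.45, 8.73 ± 0.14 and 7.80 ± 0.38. After 2 matings it kept 61.7% of its rise above virgins, against 11.2% for CG30265 and 30.3% for CG9826, while CG12490 was below virgins. CG9825 rose after 1 mating but was not lower after 2, at 5.22 ± 0.34, 5.96 ± 0.38 and 6.03 ± 0.42 (limma adjusted p = 0.0478 against virgins, and 0.884 between mated groups). The genes just outside the run did not share the pattern, with single minus virgin differences of 0.02 for CG30274 and -0.02 for CG3649. Whether probes for these related genes bind each other's transcripts was not tested.

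**Figure D3:**
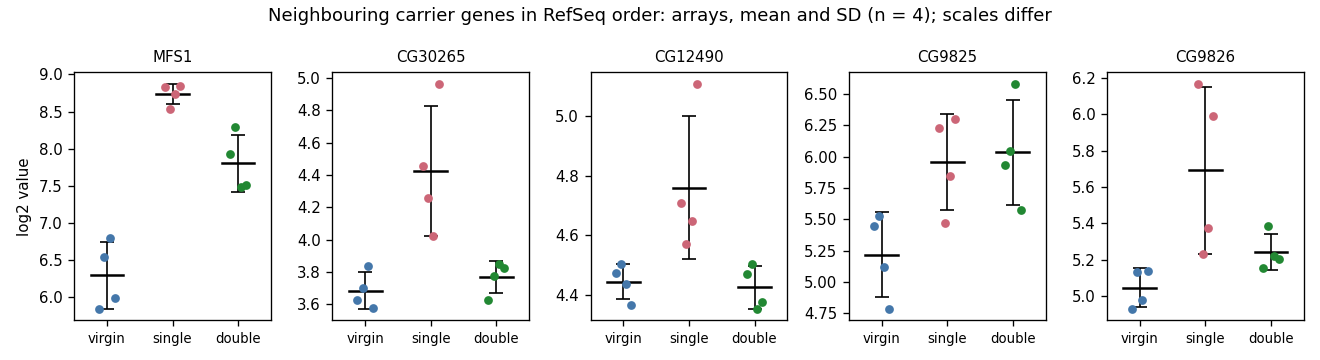
Points are the log2 values of the 4 arrays in each group for 5 neighbouring genes in RefSeq order, with the mean as a bar and the SD as whiskers, each panel on its own scale. MFS1, CG30265, CG12490 and CG9826 are highest after 1 mating, and CG9825 stays at its single mated level, 5.96 against 6.03.

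The proteases CG17239 and Ser12 were also adjacent. In all, 5 of the 40 members placed in RefSeq had another member among the 2 protein-coding genes on either side. Among 126 measured neighbours that were not members, 38 (30.2%) were higher in single mated than in virgin and lower in double than in single mated females by sign, against 23% of all genes. The 1 neighbour beyond 0.3 in both differences was MFS1.

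The 7 stress, signalling and regulatory genes had double minus single mated differences of -0.47 to -0.32. Achl, achilles, a gene under circadian control linked to immune gene expression, read 4.20, 4.42, 4.49 and 4.42 in virgins, 4.96, 4.82, 4.91 and 5.75 in the single mated group and 4.77, 4.76, 4.70 and 4.32 in double mated females. Single mated replicate 4 was far above the other single mated pools and double mated replicate 4 far below its own, yet the other single mated pools still lay above all double mated pools. CG12517, listed in RefSeq also as Gbp4 after growth-blocking peptides, a cytokine family of insects, read 7.78, 8.24, 8.43 and 7.72, then 8.94, 9.02, 9.25 and 9.26, then 8.76, 8.90, 8.74 and 8.24 in virgin, single and double mated females. No single mated pool overlapped the others.

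Gadd45, a stress-induced activator of kinase signalling, read 6.43, 6.72, 6.37 and 6.68 in virgins, 7.15, 7.02, 6.92 and 7.03 in the single mated group and 6.74, 6.91, 6.78 and 6.39 in double mated females. MsrA repairs oxidized methionine, and read 10.17, 10.04, 10.38 and 10.35 in virgins, 10.47, 10.80, 10.66 and 10.73 in the single mated group and 10.30, 10.42, 10.60 and 10.06 in double mated females. Single mated pools of Gadd45 were above all others, at the closest 6.92 against 6.91, and those of MsrA were above virgins but not above every double mated pool. Fer2, a bHLH transcription factor of dopaminergic and clock neurons, averaged 5.67 ± 0.07, 5.98 ± 0.11 and 5.66 ± 0.08, with all single mated pools above the rest.

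Jhbp3, of the juvenile hormone binding protein family, averaged 11.08 ± 0.10, 11.55 ± 0.20 and 11.20 ± 0.19. The C-type lectin CG7763 averaged 4.42 ± 0.41, 5.95 ± 0.76 and 5.52 ± 1.17, and its double mated pools ranged from 4.23 to 6.95, so that the groups overlapped. Without double mated replicate 4, 3 of these 7 genes met the rule, Achl, CG12517 and Fer2, and without single mated replicate 4 as well 0 did.

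Among the 10 members named without a role, CG5191, CG31259 and CG15745 were in the 16 largest peaks. CG5191 read 9.35, 9.36, 9.24 and 9.04 in virgins, 11.13, 10.82, 11.24 and 11.20 in the single mated group and 10.54, 10.70, 10.60 and 10.03 in double mated females. CG31259 read 7.0, 7.31, 7.48 and 6.92 in virgins, 9.27, 9.33, 9.45 and 9.59 in the single mated group and 8.47, 9.31, 9.35 and 8.29 in double mated females. CG15745 read 7.11, 6.72, 6.69 and 6.61 in virgins, 7.66, 7.60, 8.39 and 8.21 in the single mated group and 7.76, 7.69, 7.34 and 7.09 in double mated females. CG5191 showed 3 separate groups, while double mated replicates 2 and 3 of CG31259 reached the single mated values and single and double mated pools of CG15745 overlapped.

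CG3348 averaged 9.59 ± 0.29, 11.40 ± 0.20 and 11.05 ± 0.44, and CG15673 7.18 ± 0.10, 8.39 ± 0.35 and 8.03 ± 0.46. In both, double mated replicates 1 to 3 were near the single mated range, and without replicate 4 the double minus single difference was -0.13 and -0.14. The 5 others ranged from a single minus virgin difference of 0.32 for CG31636 to 0.69 for CG13360, with 0.33 for CG18367, 0.35 for CG14625 and 0.40 for CG5892. CG14625 varied little after 2 matings, at 3.87 ± 0.01 against 3.84 ± 0.06 in virgins and 4.19 ± 0.17 in single mated pools. Its means were near the array medians of the male lists, 3.86 to 4.21, so the small SD need not mean steady expression. Across the set, 11 of 41 members had single mated means below the median of all array values.

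**Figure D4:**
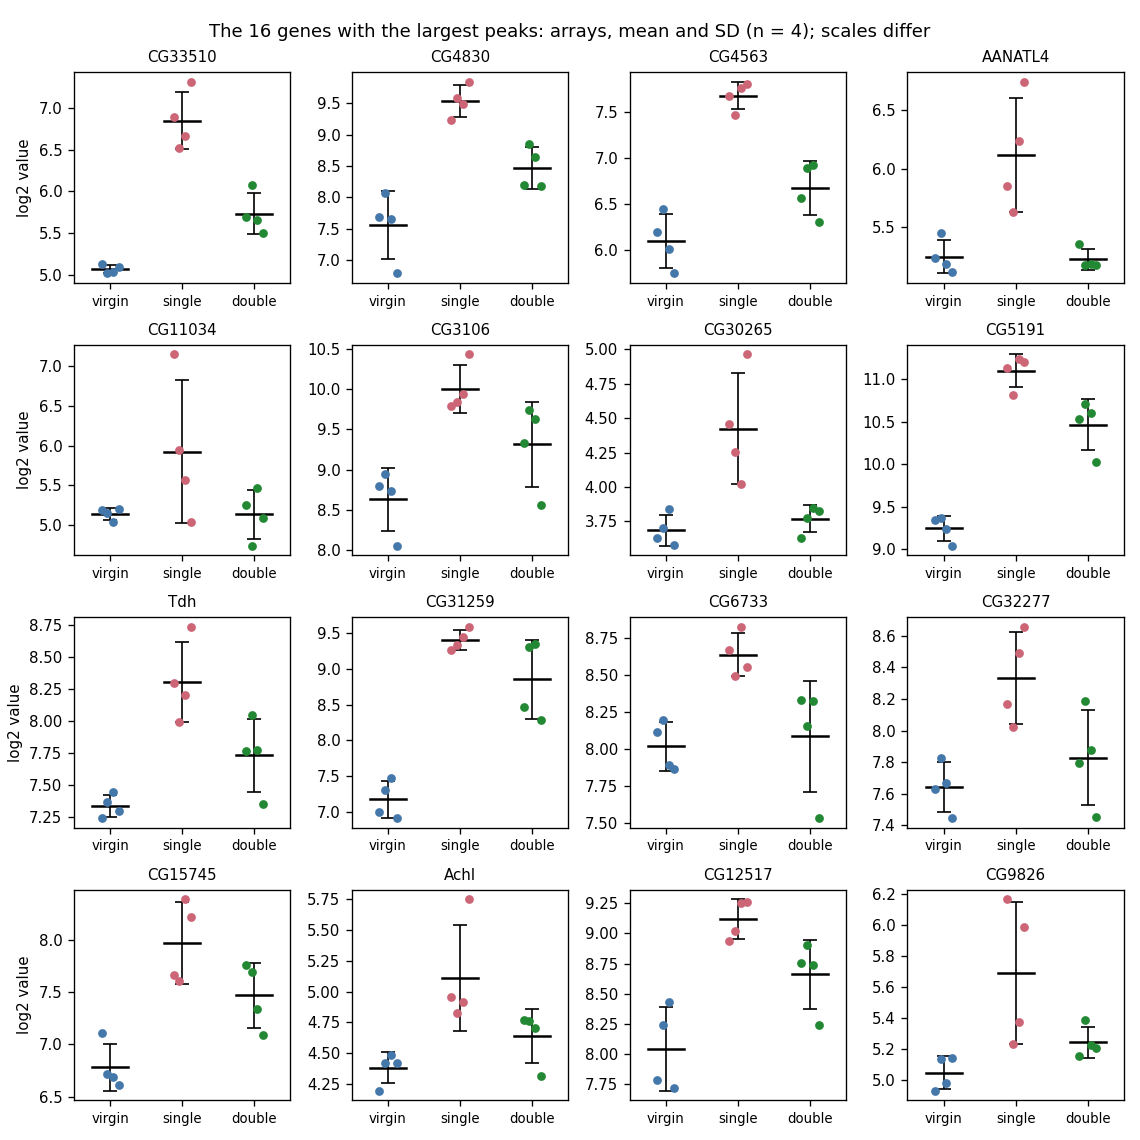
Each panel shows 1 of the 16 genes with the largest peaks, with the log2 value of every array, the mean (bar) and the SD (whiskers, n = 4), each on its own scale. CG33510, CG4830 and CG5191 separate all single mated arrays from the rest, whereas CG11034 ranges from 5.04 to 7.15 after 1 mating.

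Double mated females were compared with virgins to see how much of the single mated excess was still present after 2 matings. The rule keeps this difference at least 0.3 below the single mated minus virgin difference and does not fix its sign. It used the same virgin arrays and required a rise above them, so a positive difference was favoured in advance. The values below are therefore a description, and the shares over all genes or probe sets are not a like comparison. Of the 41, 33 had a double mated mean above the virgin mean (44.6% of all genes), with a median difference of 0.26 against -0.02 over all probe sets. In limma, 16 were called higher in double mated than in virgin females (12.3% of probe sets) and 1, CG32523, was called lower (15.7%). Those 16 were called higher than in virgins in both mated groups, which the name of the pattern, a peak after 1 mating only, leaves out.

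The 16 included all 5 fatty acid and ester enzymes, 6 genes without a role, the proteases CG17239 and Ser12, and 1 gene each of the carriers, small molecule enzymes and signalling genes, namely CNT2, CG33510 and CG12517. CG31259 kept 75.1% of its excess, at 3.20-fold the virgin level after 2 matings and 4.70-fold after 1. CG17192 kept 83.5%, CG3348 80.8%, CNT2 73.3% and CG5191 65.8%. These shares include double mated replicate 4. Without it the double minus virgin difference was 1.79 for CG17192 and 1.68 for CG3348, beside single minus virgin differences of 1.83 and 1.80. For CNT2 it was 1.24 beside 1.55, and for CG5191 1.36 beside 1.85. CG33510, CG4830 and CG4563, with the deepest drops, kept 37.4%, 46.3% and 36.4%.

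The other 24 were not called between double mated and virgin females, which does not show that they returned to the virgin level. For AANATL4 the difference was -0.02 (95% interval -0.39 to 0.35), for CG5892 -0.01 (-0.19 to 0.17), for CG30265 0.08 (-0.23 to 0.40) and for Fer2 0.00 (-0.15 to 0.14). CG11034 had an interval of -0.68 to 0.66 around -0.01, and CG7763 one of 0.09 to 2.12 around 1.10 that missed the adjusted threshold (limma adjusted p = 0.104). Without double mated replicate 4, CG7763, Tdh and Gadd45 were called higher than in virgins (limma adjusted p = 0.016, 0.010 and 0.046). Without that array CG7763 had a double minus single difference of -0.01. CG32523 went past the virgin level, by -0.41 (-0.65 to -0.16, limma adjusted p = 0.015), and its call ended without double mated replicate 2 (0.0507) or 3 (0.0512). The calls of CG3106, CG3841, CG13360 and Ser12 also each ended without at least 1 other array. With double mated replicate 4 included, 14 members kept over 50% of the excess, 13 kept 25% to 50%, 6 kept up to 25%, and 8 were below virgins.

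**Figure D5:**
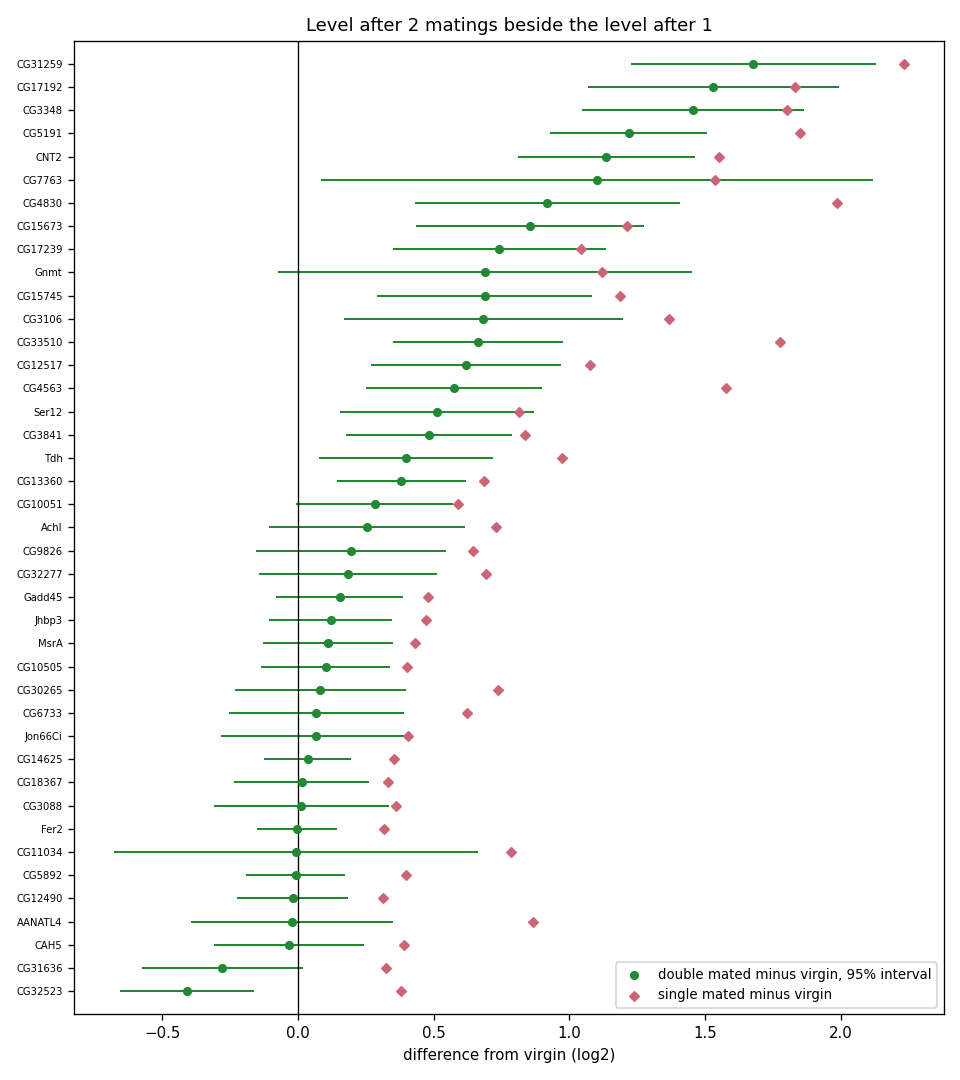
For each of the 41 genes, the circle gives the double mated minus virgin difference with its 95% interval and the diamond the single mated minus virgin difference, both log2. CG31259, CG17192 and CG3348 remain well above 0, AANATL4, CG5892 and Fer2 sit at 0, and CG32523 lies below it.

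Functional lists were counted to see which shared the peak. For comparison, the 41 members were 0.342% of all genes. Over all probe sets, 4.49% were called higher and 5.17% lower in single mated than in virgin females, and 3.55% higher and 1.74% lower in double than in single mated females. The lists were too small, at most 63 measured genes, for 1 or 2 peaking genes to be read against that share. Of 31 lists, 6 held a peaking gene, and 6 of the 41 members belonged to any list. The list named midgut serine proteases had 2 of 26 measured members in the set, Jon66Ci and Ser12. Ser12 was also counted in the sperm storage gland and oviduct list, and it lies beside CG17239. Only Jon66Ci was thus in the midgut list alone, and the tissue that makes Ser12 was not tested. Jon66Ci was called neither against virgins after 1 mating nor between the mated groups (limma adjusted p = 0.134 and 0.242). As a whole the midgut list had 9 members higher and 0 lower in single mated than in virgin females. Between the mated groups 4 were higher and 1 lower after 2 matings, and the medians of the 2 differences were 0.32 and 0.23. The sperm storage gland and oviduct list had 2 of 17, CG17239 and Ser12, with 8 higher and 1 lower after 1 mating, and 2 higher and 0 lower between the mated groups. Medians there were 0.28 and -0.02.

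Gnmt was 1 of 28 in the amino acid and one-carbon list, where 6 were higher and 0 lower after 1 mating and 2 were higher and 0 lower between mated groups. Gadd45 was 1 of 15 in the stress kinase and JAK/STAT list, with 2 higher and 1 lower, then 1 higher and 0 lower. MsrA was 1 of 18 in the oxidative stress list, with 1 higher and 0 lower, then 1 higher and 0 lower. Through its ecdysone-induced synonym, MsrA was also 1 of 20 in the juvenile hormone and ecdysone list. That list had 6 higher and 0 lower, then 1 higher and 2 lower. The 2 lower genes were jhamt and Jhe, which met both thresholds of the rule and were left out by name. The other 25 lists held 0 members. Among them were antimicrobial peptides (13 measured), eggshell proteins (19), muscle (18), membrane transporters (63, a list that lacked the carriers above) and fatty acid genes (36, a list that lacked the coenzyme A ligases above). The carboxylesterase and aldehyde enzyme list (15) lacked CG3841, and the gut carbohydrase, lipase and lysozyme list (22) lacked CG17192. A list with 0 members therefore does not show that its function was absent from the peak.

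At the edge of the rule, the members with the smallest peaks were Ser12, CG17192 and CG10505, each with a double minus single difference of -0.30. Just outside were CG17560 with -0.30 (unrounded above the limit), CG17570 with -0.29 and CG13023 with -0.29. The genes left out by name had peaks of similar or larger size. MtnD and MtnB averaged 9.11, 10.36 and 9.11, and 7.49, 8.48 and 7.56, in virgin, single and double mated females, and jhamt and Jhe 5.33, 7.66 and 6.58, and 4.95, 6.37 and 5.46. Osi19, Cyp313a4, Cyp6a8 and Cyp4d14 had double minus single differences of -0.51, -0.56, -0.44 and -0.58.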

How the data were processed

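The deposited table holds 1 log2 value per probe set and array, made by the authors with RMA in the affy package, per the submitters' processing notes; versions are not given in the sources used here. RMA includes quantile normalization. Of 18952 probe sets, 183 Affymetrix controls were left out and 18769 were fitted, unfiltered, with limma 3.58.1 in R 4.3.3 (lmFit, eBayes) on all 12 arrays with 3 group means. Calls are at a Benjamini-Hochberg adjusted p under 0.05 over all of them, and the fit was tested on simulated data. Platform annotation gave 13647 probe sets with 1 symbol, for 11982 genes. Members have 0 further probe sets. Precision is limited by having 4 arrays a group. Members, lists and roles were chosen with earlier results of these data known. Array values in full are given for the 16 largest peaks by the smaller of the 2 differences, and for up to 3 further members of any list. Promoter and protein sequences were not used here. Replicate numbers did not pair the arrays (same-number correlations of residuals from -0.264 to 0.143). RefSeq Release 6 matched 40 of 41 members by gene ID and served only for names and gene order.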

Additional observations from a re-analysis of the deposited data

Results flagged for a closer look

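In 6 of 123 groups of 4 arrays (41 genes in 3 groups), 1 array stood far from the other 3 by Dixon's gap criterion at the 95% level, which chance gives in about 1 of 20 groups. Single mated replicate 4 was high for Achl, at 5.75 against 4.82 to 4.96, and for CG17239, at 9.81 against 9.22 to 9.30. Double mated replicate 4 was low for Achl, at 4.32 against 4.70 to 4.77. AANATL4 was high in double mated replicate 1, at 5.36 against 5.18 to 5.19, and CG14625 in single mated replicate 3, at 4.44 against 4.10 to 4.12. CG10505 was low in virgin replicate 2, at 5.58 against 5.91 to 5.95.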

How the results depend on the processing

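Limits: the set depends on its threshold and on 2 arrays. It held 118 genes at 0.2 and 12 at 0.5, 27 with limma array weights, and 22 without single mated replicate 4 and double mated replicate 4 together, an alternative chosen after seeing the data, as were the settings for members called single against virgin, double against single or in both, and for members without overlap. With each array left out it held 28 to 60 genes, sharing 26 to 41 with the 41. Cyclic loess gave 33 genes, 30 of them shared, and centring 38, 36 of them shared. Double minus single turned positive for CG7763 with array weights (0.18) and for CG15673 (0.029) and CG17192 (0.069) without both arrays; the cause was not tested. Dropping probe sets under the overall median left fewer members to count: 8 called between mated groups, 7 in both comparisons and 9 without overlap. Over all probe sets, calls for single mated against virgin went from 1813 to 2953 with array weights and 857 to 2698 leaving out 1 array. Calls between mated groups went from 992 to 661 with the replicate number as a block, 2195 with array weights, 550 with only those groups fitted, 2449 without both arrays and 527 to 2171 leaving out 1 array. With the block, 17 members were called against virgins, the number without it, but CG3106 was not among them (limma adjusted p = 0.0513). Of calls for double mated against virgin 43.9% were higher, and 29.1% after subtracting the median of every array. With 1 array left out, 12 to 20 members were called against virgins.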

Other observations

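Of the 126 measured neighbours of the members that were not members themselves, 13 were called higher (10.3%) and 4 lower (3.17%) in single mated than in virgin females in limma, against 4.49% and 5.17% of all probe sets. Between the mated groups 7 of the 126 were called higher after 2 matings and 1, MFS1, lower, against 3.55% and 1.74% of all probe sets. These counts were chosen after the values were seen, and neighbours include related genes. Beside MFS1 and CG9825, 5 of the 13 had a lower mean after 2 matings than after 1. They were CG11741 and CG31454 on either side of CG31259 (7.90, 9.37 and 9.09, and 5.25, 5.95 and 5.82, in virgin, single and double mated females), the water channel gene Drip beside CG7763 (8.16, 8.98 and 8.80), CG10062 near CG10051 (7.17, 7.54 and 7.28) and CG6295 beside CG17192 (12.13, 13.06 and 13.01). The other 6 had a higher mean after 2 matings: ana, Mnr, LanB2, CG11961, CG17234 and CG6296. Those lower in single mated females than in virgins were Sin1, aurB, Send1 and Sgf29.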
